A study of Homo sapiens with 16 samples.

Results

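The lysosome and V-ATPase genes are 42 genes whose products build, acidify, fill or sense the lysosome, out of 20037 protein-coding genes on chromosomes 1 to 22, X and Y in the gene table used. They were listed by name and not by a cut on any measured value, but with earlier results of these data known. A gene was counted as having a site when a peak lay within 5 kb of either end of the gene in GRCh38. By role they comprise 15 V-ATPase genes (5 of the V0 domain, 8 of the V1 domain and 2 accessory proteins), 6 lysosomal membrane proteins, 6 proteases, 8 other hydrolases and lipid-handling proteins, 5 nutrient-signalling proteins and 2 autophagy proteins.

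The measurements come from CUT&RUN, in which an antibody guides a nuclease to chromatin and the short fragments it releases are sequenced. WM164 cells, a human melanoma line, overexpressed either GFP (GFP cells, the controls) or the transcription factor MAFG (MAFG cells). Each line was profiled with anti-MAFG in 3 libraries, anti-MITF in 3 libraries and anti-H3K4me3 in 1 library, and the 2 libraries made with IgG were not analysed here. About 250000 cells went into each sample. The vector, the promoter driving GFP or MAFG, and whether each line is a clone are not given in the sources used here. Nothing in the labels says that replicate libraries came from separate cultures, so the spread between them may be technical.

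MITF, the master regulator of pigment cells, belongs to a small family of basic helix-loop-helix leucine zipper factors with TFEB, TFE3 and TFEC. These factors bind E-boxes, and TFEB in particular is known for switching on lysosomal genes through a motif built around the E-box CACGTG. The V-ATPase is a proton pump whose membrane-bound V0 domain carries protons and whose V1 domain hydrolyses ATP, and it gives the lysosome the acid pH that its hydrolases need. RagC and RagD GTPases, with folliculin and its FNIP partners, link lysosomal amino acid supply to mTORC1 and to the cytoplasmic retention of MITF and TFE factors. MAFG, of the small MAF family, reaches DNA in pairs, with a CNC factor such as NRF2 or with another small MAF protein.

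The promoter stretches just upstream of 8 of these genes are printed first because the letters in them carry the E-box result described further on. Each is RefSeq sequence of GRCh38.p14, 5′ to 3′ on the strand of the gene, and ends at the base before the start site. Capitals mark CACGTG with an adjoining T in front or A behind, which makes TCACGTG on one strand or the other, and also TCATGTG and its reverse complement. LAMP1 (chr13:113297039-113297238, plus strand) was chosen for its repeated E-boxes. GAA (chr17:80101481-80101580, plus strand), MCOLN1 (chr19:7522524-7522623, plus strand) and ATP6V1G1 (chr9:114587669-114587768, plus strand) hold a longer palindrome, with GT before CACGTG and AC after it. CLCN7 (chr16:1475029-1475128, minus strand), RRAGC (chr1:38859773-38859922, minus strand) and FNIP1 (chr5:131797018-131797217, minus strand) are the 3 genes with CACGTG here that also had an anti-MITF site in MAFG cells. TPP1 (chr11:6619423-6619522, minus strand) had strong anti-MITF peaks without CACGTG in its promoter and holds the variant TCATGTG.
LAMP1: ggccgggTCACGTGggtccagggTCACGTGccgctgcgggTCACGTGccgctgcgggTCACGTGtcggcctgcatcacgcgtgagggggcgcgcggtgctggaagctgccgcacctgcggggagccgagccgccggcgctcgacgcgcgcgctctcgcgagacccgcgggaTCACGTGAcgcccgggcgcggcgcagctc
GAA: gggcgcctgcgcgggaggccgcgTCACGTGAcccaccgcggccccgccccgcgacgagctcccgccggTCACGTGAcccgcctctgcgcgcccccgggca
MCOLN1: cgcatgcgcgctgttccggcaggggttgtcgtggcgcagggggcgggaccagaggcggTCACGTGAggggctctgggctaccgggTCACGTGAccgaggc
ATP6V1G1: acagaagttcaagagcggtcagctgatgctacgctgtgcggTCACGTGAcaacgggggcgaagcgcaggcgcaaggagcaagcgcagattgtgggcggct
CLCN7: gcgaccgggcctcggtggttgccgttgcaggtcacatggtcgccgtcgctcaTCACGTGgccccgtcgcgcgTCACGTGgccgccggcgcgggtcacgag
RRAGC: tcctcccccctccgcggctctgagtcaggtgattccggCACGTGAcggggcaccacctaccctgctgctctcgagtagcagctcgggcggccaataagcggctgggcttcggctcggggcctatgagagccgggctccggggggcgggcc
FNIP1: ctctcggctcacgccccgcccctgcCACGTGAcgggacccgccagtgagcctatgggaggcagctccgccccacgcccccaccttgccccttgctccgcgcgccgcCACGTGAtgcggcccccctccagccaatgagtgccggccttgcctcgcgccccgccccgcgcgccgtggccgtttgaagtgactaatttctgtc
TPP1: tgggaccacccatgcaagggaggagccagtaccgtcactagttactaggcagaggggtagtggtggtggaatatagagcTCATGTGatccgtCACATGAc

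Libraries of the 2 lines differed in how much was called. Anti-MITF gave 19828 to 20117 peaks per library in GFP cells and 2116 to 2495 in MAFG cells, and anti-MAFG gave 14879 to 26221 and 1836 to 2818. The weakest called peak rested on 5 to 7 fragments at its summit in the anti-MAFG and anti-MITF libraries of GFP cells and on 8 to 12 in those of MAFG cells, as recovered from the authors' peak values. The local background that entered the authors' fold was also higher in MAFG cells: at the strongest H3K4me3 peak of each listed gene its median was 1.70 times the lowest background of the library in GFP cells (40 genes with a recovered value) and 4.12 times in MAFG cells (41 genes). Fold enrichments are therefore given within a line and are not compared between lines, and the part of background and of these fragment minimums in the differences between lines was not tested. The cell identity was checked with H3K4me3: 5 of 7 pigment cell genes (MITF, SOX10, PMEL, MLANA and TYR, not TYRP1 or DCT) and 2 of 7 genes of other cell types (CD79A and CDH5) had a peak, the same in both lines.

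Anti-MITF sites lay near most lysosome and V-ATPase genes in GFP cells. A site called in at least 2 of 3 libraries was found near 35 of the 42 genes (83.3%), whereas the background over all coding genes was 35.6%. Coding genes matched to the list on gene length and H3K4me3 of GFP cells had a site in 55.7% of cases, which is 27.6 percentage points lower. In single libraries 36, 37 and 33 of the 42 genes had an anti-MITF peak (35.3 ± 2.08, SD, n = 3). The list was named as a class of MITF and TFE targets, so its high share is a description and carries no test.

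Anti-MITF sites near these genes were fewer in MAFG cells, and again above the background. A site was called near 17 of the 42 genes (40.5%), against 4.56% of all coding genes and 6.91% of the matched genes, a gap of 33.6 points. Per library, 15, 17 and 17 genes had a peak (16.3 ± 1.15, SD, n = 3), so the libraries of the 2 lines did not overlap in this count. With 3 libraries against 3 an exact permutation test cannot give a p below 0.1, and the number of all coding genes with a peak moved the same way, from between 37.0% and 37.7% per library in GFP cells to between 4.82% and 5.48% in MAFG cells. All 17 genes also had a site in GFP cells, and 0 genes had a site in MAFG cells alone. Over all coding genes 901 of the 913 with a site in MAFG cells also had one in GFP cells, so the listed genes are near that share. When only regions within 5 kb of a single coding gene were counted, 19 listed genes had an anti-MITF site in GFP cells and 11 in MAFG cells, beside 19.8% and 2.36% of all coding genes. With a peak required in 3 of 3 libraries 11 had a site in MAFG cells, beside 2.58%.

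Anti-MAFG sites near the list, called in at least 2 of 3 libraries, were above the share of all coding genes in GFP cells. They were not above that of matched genes. In GFP cells 14 of the 42 genes (33.3%) had a site, against 25.3% of all coding genes and 36.6% of matched genes, a difference of -3.22 points. The libraries counted 18, 17 and 11 genes (15.3 ± 3.79, SD, n = 3). With 1 library left out, a site needed a peak in both remaining libraries, a stricter rule under which counts can only stay or fall. That gave 7 genes without replicate 1, 6 without replicate 2 and 11 without replicate 3, beside 15.1%, 16.3% and 22.5% of all coding genes. The first 2 of these counts (16.7% and 14.3% of the list) lie near the share of all coding genes. The difference from other coding genes turned positive when these were not matched (8.06 points) or when the gene body was counted (0.559 points). In MAFG cells 0 of 42 genes had an anti-MAFG site, against 1.76% of all coding genes and 2.45% of matched genes. Each of those 3 libraries held a peak near 1 gene only, and the gene differed: ATP6V0E1 in replicate 1, NPC2 in replicate 2 and PSAP in replicate 3.

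**Figure D1:**
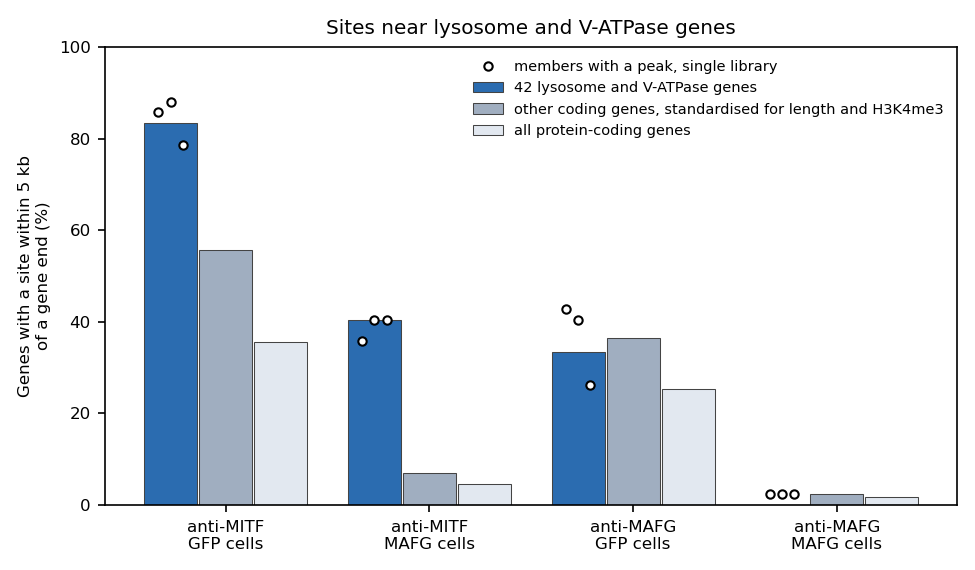
Share of genes (%, vertical axis) with a site within 5 kb of a gene end, for the 4 groups of 3 libraries. Bars show the 42 lysosome and V-ATPase genes, genes matched on length and H3K4me3, and all 20037 coding genes. Points show the share of the listed genes with a peak in each single library. The anti-MITF bars of the list stand above both references in each line (83.3% in GFP cells and 40.5% in MAFG cells), and the anti-MAFG bars do not stand above the matched genes.

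Anti-MITF counts by role, here and below, stand beside 35.6% of all coding genes in GFP cells and 4.56% in MAFG cells. Genes matched to the whole list had 55.7% and 6.91%. A single role holds 8 genes at most, and differences between roles were not tested. The V0 domain of the pump was represented by 5 genes, and 4 of them had an anti-MITF site in GFP cells. ATP6V0E1, a small subunit of this domain, had the highest signal of the 4, with folds of 16.7, 18.0 and 13.4 over local background in the 3 libraries. Its folds in MAFG cells were 12.9, 9.53 and 12.01, so it had a peak in all 6 anti-MITF libraries, in the region chr5:172983170-172985323, with the median summit 303 bp from a gene end. ATP6V0A1, a large subunit through which protons pass, had the lowest mean among the 32 listed genes with a peak in all 3 libraries, with folds of 4.48, 4.76 and 7.99 and no peak in MAFG cells. Folds of ATP6V0D1, the subunit that joins the domains, were 6.64, 7.56 and 10.3, and those of ATP6V0B, a proteolipid of the proton-carrying ring, were 8.95, 7.98 and 6.09. ATP6V0B also had a peak in 1 anti-MITF library of MAFG cells, too few for a site. ATP6V0C, the main ring proteolipid, had a single anti-MITF peak, in replicate 2 of GFP cells, with 6 fragments at its summit.

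All 8 genes of the V1 domain had an anti-MITF site in GFP cells, beside 35.6% of all coding genes. No other role with more than 2 genes had a site near every gene. The highest was ATP6V1E1, part of the peripheral stalk, with folds of 19.1, 15.5 and 17.9 at chr22:17627873-17629740, a region that also lies within 5 kb of BCL2L13. ATP6V1A, the catalytic subunit that binds ATP, followed with 15.2, 15.1 and 13.6 at chr3:113744945-113748075, near the start of NAA50 as well. ATP6V1H, a regulatory subunit, had folds of 12.6, 12.6 and 14.1. These 3 genes and ATP6V1B2, the other subunit of the catalytic head, formed the 4 V1 genes that also had a site in MAFG cells. There ATP6V1B2 had folds of 14.7, 8.40 and 8.43, and ATP6V1H of 6.85, 5.85 and 5.20. ATP6V1E1 was uneven there, with folds of 5.16, 4.45 and 12.2 from 38, 47 and 48 fragments, so a similar number of fragments stood on a different local background in replicate 3. ATP6V1A had no peak in MAFG-cell replicate 1, and folds of 10.7 and 5.39 in the others. The 4 V1 genes without a site in MAFG cells were ATP6V1C1, ATP6V1D, ATP6V1F and ATP6V1G1, with mean folds between 8.02 and 11.2 in GFP cells and no peak in any anti-MITF library of MAFG cells.

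Of the 2 accessory proteins of the pump, ATP6AP1 had an anti-MITF site in both lines. Its folds were 9.14, 6.55 and 6.30 in GFP cells, and 6.40 and 9.25 in the 2 MAFG-cell libraries with a peak. ATP6AP2, also known as the prorenin receptor, had no anti-MITF or anti-MAFG peak in any of the 12 libraries. Counted together, 13 of the 15 V-ATPase genes had an anti-MITF site in GFP cells and 6 did in MAFG cells, beside 35.6% and 4.56% of all coding genes.

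Among the 6 membrane proteins, 5 had an anti-MITF site in GFP cells and 1 in MAFG cells, beside 35.6% and 4.56% of all coding genes. LAMP1 and LAMP2, the abundant glycoproteins that line the lysosomal membrane, had low signal: LAMP1 had folds of 10.1, 5.33 and 6.23, and LAMP2 of 7.84, 5.46 and 5.16. The folds are of the strongest peak near the gene. For LAMP2 the 7.84 and 5.16 came from a different region than the 5.46, and each region had a peak in 2 libraries. MCOLN1, the calcium channel of the lysosome, had folds of 4.65, 8.99 and 6.39. NPC1, which exports cholesterol, had folds of 7.95, 7.10 and 8.91. The 7.10 of replicate 2 lay at the other gene end, within 5 kb of RMC1. In the region at the NPC1 start site replicate 2 had a fold of 4.23. These 4 genes had no anti-MITF peak in MAFG cells. CLCN7, a chloride-proton exchanger, was the exception, with folds of 9.59, 6.51 and 9.83 in GFP cells, with 8.13, 5.89 and 6.75 in MAFG cells, from 15 to 18 fragments in the latter. SCARB2, a lysosomal membrane receptor, had no anti-MITF peak near either gene end in any library.

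Proteases had the lowest share with an anti-MITF site in GFP cells among the roles with more than 2 genes, 4 of 6 (66.7%). The share was 35.6% over all coding genes and 55.7% over genes matched to the whole list. TPP1, a peptidase that trims tripeptides, was the strongest, with folds of 17.2, 13.7 and 18.6 at chr11:6617975-6619888. In MAFG cells it had peaks in replicates 1 and 3, with folds of 6.53 and 5.76 from 36 and 29 fragments. CTSA, which protects neuraminidase and galactosidase, had folds of 9.33, 9.24 and 10.9 in GFP cells and no peak in MAFG cells. CTSD, the main aspartic protease, had peaks in 2 GFP-cell libraries, of 7.92 and 4.59, and CTSK, the collagen-degrading cathepsin of osteoclasts, had 2, of 5.24 and 6.23. CTSB had a peak in replicates 1 and 2 of GFP cells, but in different regions, so no site was called. CTSL had no peak of either antibody in the 12 libraries.

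Of the 8 other hydrolases and lipid-handling proteins, 7 had an anti-MITF site in GFP cells and 3 in MAFG cells. Over all coding genes these shares were 35.6% and 4.56%. NPC2, which hands cholesterol to NPC1, led all 42 genes in GFP cells, with folds of 28.1, 17.7 and 19.2 and a mean of 21.7 ± 5.63 (SD, n = 3). On average this peak outranked 99.4% of the peaks of its library. Its region, chr14:74491915-74494730, also lies within 5 kb of ISCA2 and LTBP2. In MAFG cells NPC2 had folds of 11.5, 12.7 and 8.87. PSAP, the precursor of the saposins that help degrade sphingolipids, had folds of 17.6, 13.7 and 19.97 in GFP cells, with 4.81, 6.99 and 4.66 in MAFG cells. ASAH1, an acid ceramidase, had folds of 22.3, 15.4 and 11.7 in GFP cells, with 5.67, 5.69 and 6.11 in MAFG cells. These were the 3 genes of the role with a site in MAFG cells, where PSAP and ASAH1 had the lowest rank of the 11 genes with a peak in all 3 libraries. NEU1, a neuraminidase that trims sialic acids, had folds of 18.7, 19.0 and 13.2 in GFP cells but a peak in only 1 library of MAFG cells, of 4.41 from 35 fragments. HEXA, GLA and GAA, the enzymes deficient in Tay-Sachs, Fabry and Pompe disease, had mean GFP-cell folds of 10.6, 7.83 and 8.21, and GAA had a peak in 2 of 3 libraries. HEXA had a peak in 1 MAFG-cell library, and GLA and GAA in none. GUSB, a glucuronidase used widely as a stably expressed control gene, had no peak of either antibody near its ends in any library.

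Of the nutrient-signalling genes as many had an anti-MITF site in MAFG cells as in GFP cells, the same 4 of 5 genes. Over all coding genes the shares were 35.6% in GFP cells and 4.56% in MAFG cells. FLCN, which encodes folliculin, had folds of 18.1, 13.4 and 16.4 in GFP cells, with 19.2, 20.7 and 24.6 in MAFG cells. It led all 42 genes in MAFG cells, with a mean fold of 21.5 ± 2.76 (SD, n = 3), 45 to 55 fragments at the summit and an average rank above 99.9% of the peaks of its library. The region was chr17:17235329-17238571, with the median summit 199 bp downstream of the start site. RRAGC, which encodes RagC, stood at 13.1, 8.98 and 13.7 in GFP cells and at 13.002, 11.3 and 13.6 in MAFG cells, where it was the next highest of the list, at chr1:38858358-38861266. FNIP1, the folliculin partner, had folds of 23.1, 17.2 and 17.3 in GFP cells at chr5:131794113-131797940, and a peak in 2 of 3 MAFG-cell libraries, of 5.96 and 5.95. RRAGD, which encodes RagD, had folds of 13.3, 14.8 and 17.2 in GFP cells at chr6:89410295-89413249 and of 7.34 and 10.004 in 2 MAFG-cell libraries. FNIP2, the paralog of FNIP1, had a peak near a gene end in 1 library of each line, and no site.

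The 2 autophagy genes had an anti-MITF site in both lines, beside 35.6% of all coding genes in GFP cells and 4.56% in MAFG cells. UVRAG, a subunit of the class III phosphatidylinositol kinase complex, had folds of 9.24, 7.60 and 7.07 in GFP cells, with 7.99, 7.95 and 8.92 in MAFG cells, at chr11:75813823-75817460. WIPI1, which binds the lipid that this kinase makes, had folds of 10.3, 5.99 and 9.21 in GFP cells and of 6.97 and 3.86 in 2 libraries of MAFG cells. Its region lies within 5 kb of ARSG, another lysosomal gene.

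**Figure D2:**
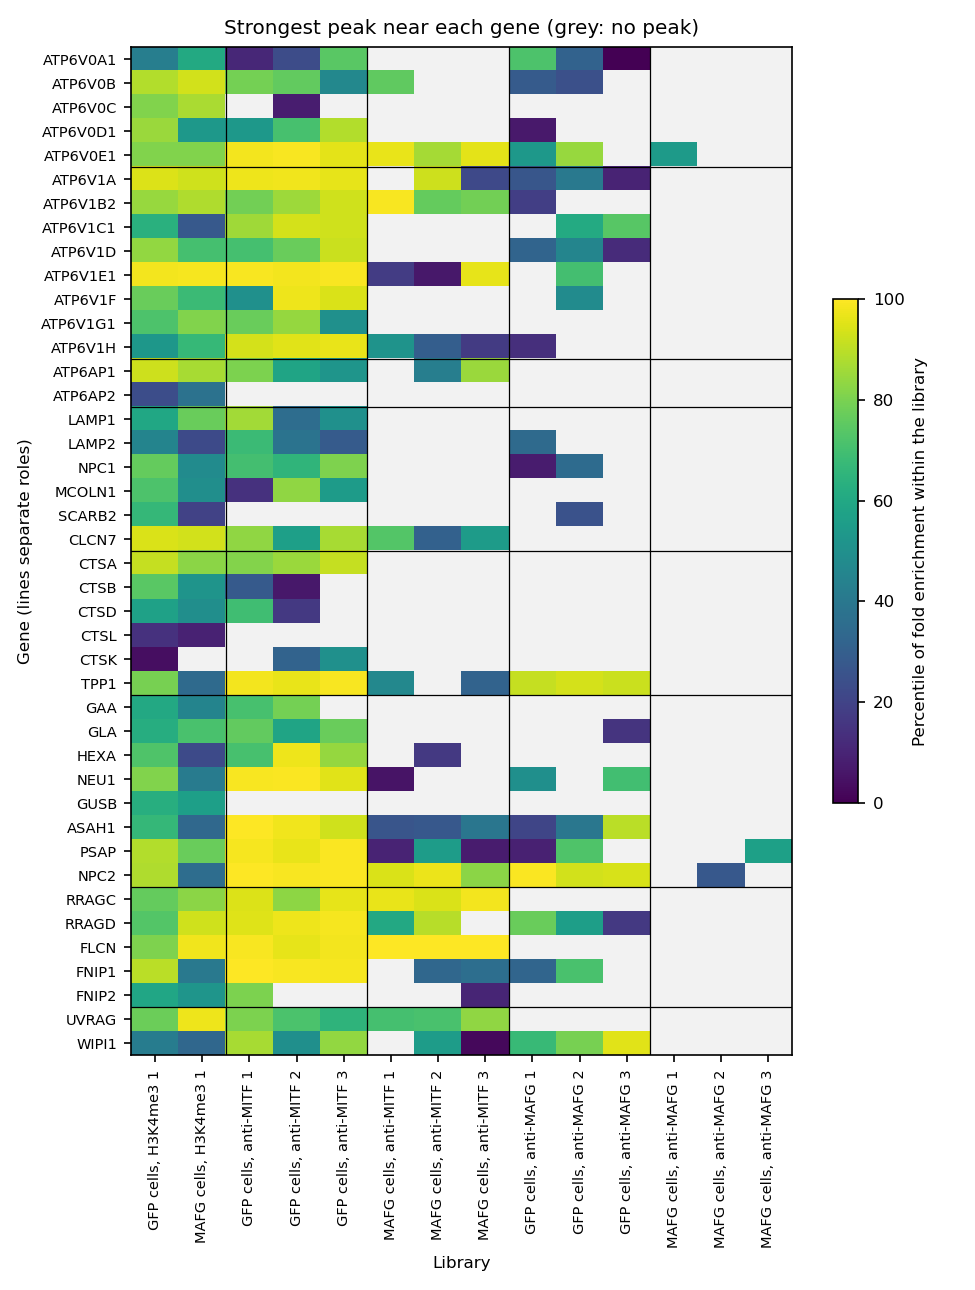
Rank of the strongest peak near each of the 42 genes (rows, with lines between roles) in each library (columns), as the percentile of the authors' fold enrichment among all peaks of that library; grey marks a library with no peak near the gene. In the anti-MITF columns of GFP cells 32 genes have a peak in all 3 libraries, and in those of MAFG cells 11 do.

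The 17 genes with an anti-MITF site in both lines were those with higher rank in GFP cells. Their mean percentile there had a median of 97.1 (63.7 to 99.4), against 70.8 (36.2 to 98.0) for the 18 genes with a site in GFP cells only. The ranges overlapped: ATP6AP1 at 63.7 had a site in both lines, and NEU1 at 98.0 in GFP cells only. Of the other coding genes with a site in GFP cells, 12.5% also had a site in MAFG cells, whereas 17 of the 35 listed genes (48.6%) did. With the other coding genes weighted to the listed genes' classes of GFP-cell rank (20 classes), the share was 28.6%. These are descriptions, and a gene without a site in MAFG cells is one where none was detected.

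**Figure D3:**
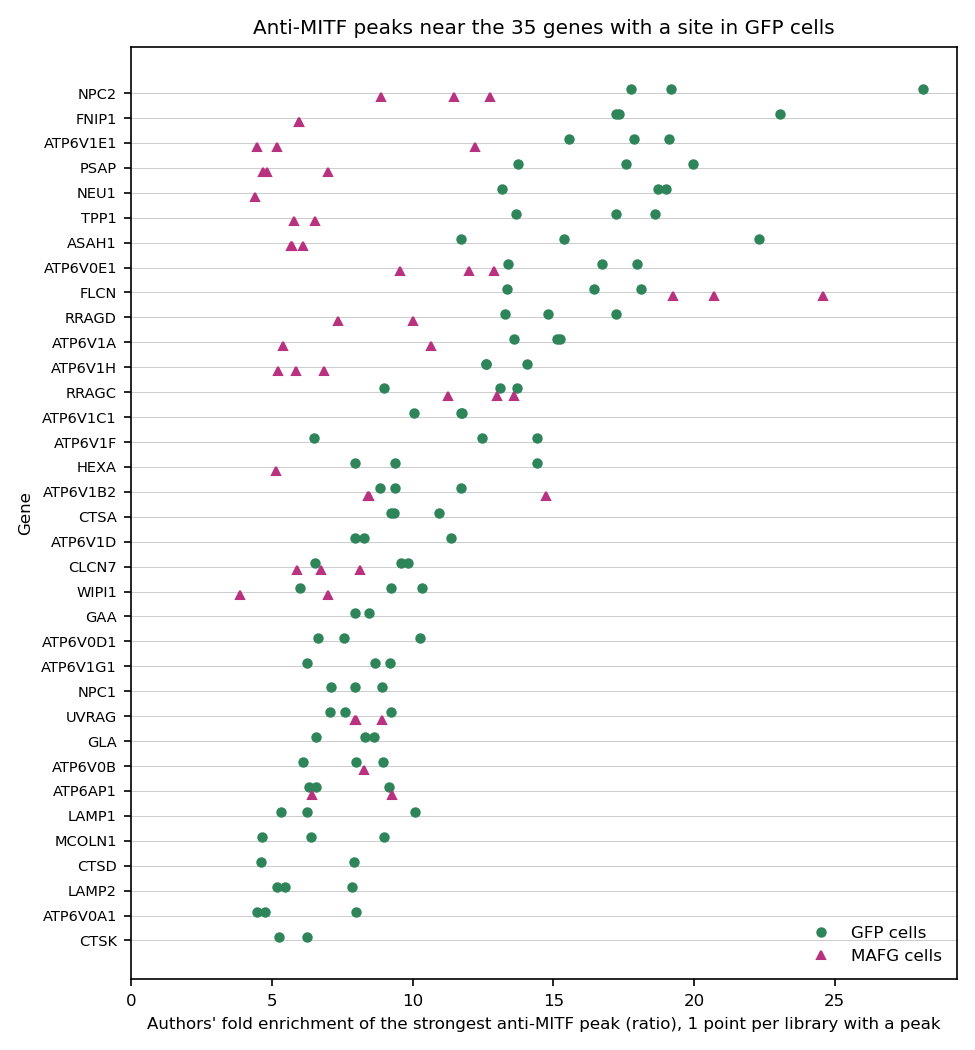
Authors' fold enrichment (ratio, horizontal axis) of the strongest anti-MITF peak near each of the 35 genes with a site in GFP cells, 1 point per library with a peak, GFP and MAFG cells in different colours. NPC2 leads in GFP cells (17.7 to 28.1) and FLCN in MAFG cells (19.2 to 24.6); folds of the 2 lines rest on different backgrounds and are shown side by side only.

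An equal number of peaks per library was used to look at the list apart from how many peaks were called. When only the 1836 peaks with the smallest p-value were used in every library, 15, 16 and 17 of the 42 genes had an anti-MITF peak in GFP cells (mean 16, SD 1, n = 3) and 14, 17 and 14 did in MAFG cells (mean 15, SD 1.73, n = 3). The 2 lines thus overlapped in this count. A site was called near 17 genes in GFP cells and 15 in MAFG cells, and 12 of these were shared, which is 70.6% of the GFP-cell genes and 80.0% of the MAFG-cell genes. Over all coding genes 818 and 716 had a site by this count and 331 were shared, 40.5% and 46.2%. The shared 12 were RRAGC, RRAGD, FLCN, FNIP1, TPP1, NPC2, ASAH1, UVRAG, ATP6V0E1, ATP6V1A, ATP6V1E1 and ATP6V1H. PSAP, WIPI1, NEU1, ATP6V1F and ATP6V1C1 had such a site in GFP cells only, and CLCN7, ATP6V1B2 and ATP6AP1 in MAFG cells only. For anti-MAFG the strongest 1836 peaks touched 1, 0 and 3 of the 42 genes in GFP cells (1.33 ± 1.53, SD, n = 3) and 1 gene in each library of MAFG cells. Of all coding genes these peaks touched 2.52% to 2.81% and 1.81% to 1.88%, so the counts are near that share.

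**Figure D4:**
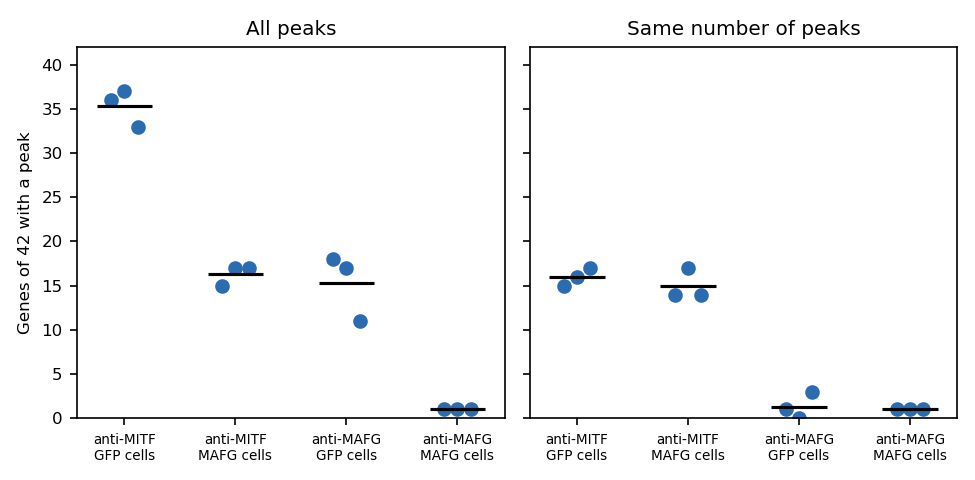
Number of the 42 genes with a peak (vertical axis), 1 point per library and a bar at the mean, for the 4 groups, with all peaks (left) and with the 1836 peaks of smallest p-value in each library (right). With all peaks the anti-MITF libraries of the 2 lines lie apart (33 to 37 against 15 to 17), and with equal numbers they overlap (15 to 17 against 14 to 17).

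Every anti-MAFG site of the list in GFP cells overlapped an anti-MITF site. The 14 genes were ATP6V0A1, ATP6V0B, ATP6V0E1, ATP6V1A, ATP6V1C1 and ATP6V1D of the pump, the protease TPP1, the hydrolases and lipid-handling genes NEU1, ASAH1, PSAP and NPC2, the nutrient-signalling genes RRAGD and FNIP1, and the autophagy gene WIPI1. At ATP6V0B the region met the window only at its edge, with the median summit 5346 bp from the gene end, near DPH2 and IPO13. With summits inside the window 13 genes had a site, beside 24.8% of all coding genes. Of the 14 regions 7 lay within 5 kb of another coding gene. All 14 also had an anti-MITF site, and the anti-MAFG region overlapped an anti-MITF region in 14 of 14 cases. An overlap needed 1 bp only, so summits need not coincide. At NPC2 the median summits, taken over both lines, lay at 74492238 (anti-MAFG) and 74493105 (anti-MITF) of chromosome 14. At ATP6V0A1, ATP6V0B, RRAGD and TPP1 the overlap was not with the strongest anti-MITF region near the gene. Of the other coding genes with an anti-MAFG site in GFP cells 71.4% had one overlapping an anti-MITF region, and 74.8% of those with H3K4me3 did. Overlapping sites of both antibodies were thus found near 14 genes (33.3%), beside a background of 18.2% and 27.7% of matched genes. Of the 14 anti-MAFG regions 12 also overlapped an H3K4me3 peak, as did 26.7% of all anti-MAFG regions anywhere in the genome. These shares are not like for like, since the 14 regions lie by rule near ends of genes with H3K4me3. The part of shared active promoters in the overlap of the antibodies was not tested. In MAFG cells overlapping sites were found near 0 of the 42 genes, beside 0.289% of all coding genes.

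NPC2 had the highest anti-MAFG signal of the list, with folds of 19.3, 11.1 and 10.02 in GFP cells and a mean of 13.5 ± 5.10 (SD, n = 3). TPP1 followed with 11.6, 11.2 and 9.60, but its anti-MAFG region, chr11:6612330-6612884, lies at the 3′ end of the gene, 6882 bp from the start site and within 5 kb of ILK and TAF10. WIPI1 had folds of 7.84, 8.34 and 10.8. These 3 genes stood above the rest: the other 5 genes with a peak in all 3 libraries (ASAH1, RRAGD, ATP6V0A1, ATP6V1D and ATP6V1A) had mean folds between 5.10 and 6.64, with average percentiles from 25.7 to 50.1. In ASAH1 and ATP6V1A the peaks of the 3 libraries belonged to 1 region. In RRAGD, ATP6V0A1 and ATP6V1D the strongest peaks lay at different places, so their means mix places. The region called near each of them had peaks in 2 libraries. The anti-MAFG region of RRAGD lay 3931 bp from a gene end, at a different place from its strongest anti-MITF region. No anti-MAFG site was found near any of the 6 membrane proteins or the 2 accessory proteins, beside 25.3% of all coding genes. So few genes carry no test.

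H3K4me3, a mark of active promoters, was present near all 42 genes in GFP cells and 41 in MAFG cells, where the background was 59.9% and 55.8% of coding genes. CTSK was the gene without a peak in MAFG cells, and in GFP cells its peak was the narrowest of the list (413 bp) and the lowest (fold 4.52), next to ARNT. The median fold of the list was 48.3 in GFP cells (4.52 to 101.0) and 18.4 in MAFG cells (5.84 to 47.8), each with 1 library and no replicate. In rank within the library the listed genes stood at a median percentile of 75.3 in GFP cells, against 64.7 for the other coding genes with a peak, and at 60.7 in MAFG cells, against 60.9. The highest H3K4me3 peak in both lines was that of ATP6V1E1 (101.0 and 47.8). Among genes with an H3K4me3 peak in the same cells, anti-MITF sites lay near 35 of 42 listed genes and 55.8% of other coding genes in GFP cells, and near 17 of 41 listed genes and 7.53% of others in MAFG cells.

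Most sites of the list lay at promoters. The 35 genes with an anti-MITF site in GFP cells had 46 regions, 42 of which overlapped an H3K4me3 peak. Of all 17346 anti-MITF regions of those cells 42.7% did, but these lie anywhere in the genome. Regions of the list were by rule near ends of genes that all had H3K4me3 in GFP cells, so these shares are not like for like. The median summit, taken over the peaks of a region in both lines, lay within 1 kb of a gene end in 37 of the 46. Among the 30 regions of genes with a start site in the promoter table, the summit lay within 1000 bp of it in 23 and within 250 bp in 13. More than 1 region was found near 10 genes, including MCOLN1 with 3, and 22 of the 46 regions lay within 5 kb of another coding gene as well. In MAFG cells there were 17 regions, 1 per gene, all 17 overlapping H3K4me3 and all within 1 kb of a gene end. Of all 2005 anti-MITF regions of those cells, anywhere in the genome, 35.1% overlapped H3K4me3.

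Promoter sequences were searched in the RefSeq windows from 250 bases before to 50 after the start site, which the table gives for 29 of the 42 genes and 15843 coding genes. These windows themselves overlapped an anti-MITF region in 24 of 29 listed genes (82.8%) in GFP cells and 9 (31.0%) in MAFG cells, against 27.4% and 3.41% of all coding genes. Anti-MAFG regions overlapped 5 (17.2%) in GFP cells, against 17.6%, and 0 in MAFG cells, against 0.928%.

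The letters CACGTG, an E-box that reads the same on both strands, were found in the windows of 12 of the 29 genes (41.4%), against 10.9% of all coding promoters. All 12 also held TCACGTG on either strand, which 5.83% of all coding promoters hold and which always contains CACGTG. The 12 were the pump genes ATP6V0B, ATP6V0D1 and ATP6V1G1, the membrane proteins LAMP1, MCOLN1 and CLCN7, the proteases CTSA and CTSD, the hydrolases GAA and NEU1, and the signalling genes RRAGC and FNIP1. They held 23 copies in all, every copy upstream of the start site, between position -192 and -1. LAMP1 had 6 copies, 5 of them in the printed stretch and the last running across the start site. The longer palindrome, which contains both shorter motifs, was found in GAA (both copies), MCOLN1 and ATP6V1G1, 10.3% of the list against 0.638% of all coding promoters. TCATGTG, on either strand, was found in 5 genes (17.2% against 3.10%): ATP6V0C, CTSA, FNIP2, SCARB2 and TPP1.

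In GFP cells the 12 windows with CACGTG all overlapped an anti-MITF region, and so did 12 of the 17 without it, among them windows at start sites of SCARB2 and FNIP2 that lie over 5 kb from the gene ends. The level of the signal did not separate them. Mean folds of the strongest peak had a median of 8.18 (6.25 to 19.2) over the 12 genes with the letters and of 9.20 (5.74 to 21.7) over the 11 genes without them that had a site. LAMP1, with 6 copies, had a mean fold of 7.21, and NPC2, FLCN and ATP6V1E1, with none, had 21.7, 15.98 and 17.5. In MAFG cells 3 of the 12 genes with the letters (CLCN7, RRAGC and FNIP1) and 6 of the 17 without them had a site. Over all coding genes TCACGTG was found in 12.8% of windows overlapping an anti-MITF region in GFP cells, 3.21% of those that did not, and 24.2% of those overlapping an anti-MITF region in MAFG cells.

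The distance from the median anti-MITF summit to the nearest CACGTG had a median of 286.5 bp over the 12 genes (91 to 718), and the letters lay inside the called region in 10 of them, the exceptions being LAMP1 and MCOLN1. GAA had the closest pair, at 91 bp. Summits lay on either side of the start site: 597 bp upstream in CTSA and 717 bp downstream in LAMP1.

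**Figure D5:**
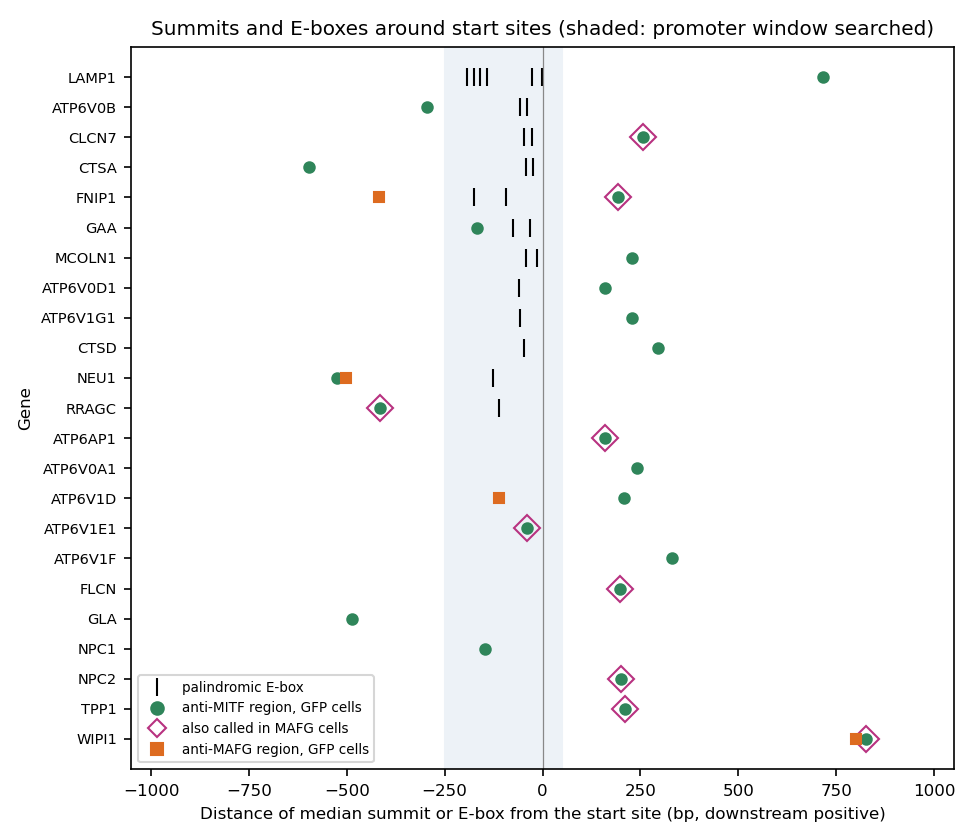
Position (bp from the start site, downstream positive) of the median summit of anti-MITF regions (circles) and anti-MAFG regions (squares) called in GFP cells, within 1000 bp. The median was taken over the peaks of a region in both lines. Ticks mark each CACGTG in the shaded promoter window, with 1 row per gene. Diamonds mark anti-MITF regions also called in MAFG cells. The 23 E-box copies all lie between -192 and -1, while the anti-MITF summits spread to both sides, from 597 bp upstream in CTSA to 826 bp downstream in WIPI1.

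The antioxidant response core TGACNNNGC, to which NRF2 and small MAF dimers bind, was found on either strand in 14 of 29 listed promoters (48.3%), against 17.9% of all coding promoters. Of the 14, 1 lay in a window overlapping an anti-MAFG region in GFP cells, that of NPC2, beside 590 of the 2840 coding promoters with the core. Such a region overlapped 5 of the 29 listed windows in all. Over all coding genes the core was found in 21.2% of windows overlapping an anti-MAFG region in GFP cells and in 17.2% of the others. In MAFG cells these shares were 36.1% and 17.8%. The letters can overlap the E-box motif, since the longer palindrome holds TGAC on each strand, and in GAA, LAMP1 and RRAGC they share bases with it. The AP-1 type core TGANTCA was found in 2 genes (6.90%, against 8.04%), FNIP2 and RRAGC. A match is a description of the letters only.

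Other genes of the same pathways, 79 in 4 lists that do not share genes with the 42, were counted by the same rule, for which the shares over all coding genes were 35.6% (anti-MITF, GFP cells), 4.56% (anti-MITF, MAFG cells) and 25.3% (anti-MAFG, GFP cells). Of 34 other lysosomal proteins 28 had an anti-MITF site in GFP cells and 9 in MAFG cells, among them GALNS, SGSH, NAGLU, PPT1, CD63, TMEM192 and CTNS. Of 15 genes of lysosomal mTORC1 signalling 12 had a site in GFP cells and 2, LAMTOR1 and MTOR, in MAFG cells. Of 20 autophagy genes 14 had a site in GFP cells and 3 in MAFG cells: GABARAP, a coat protein of autophagosomes, ATG3, the enzyme that helps attach it to lipid, and VPS18, which tethers autophagosomes to lysosomes. Of 10 V-ATPase isoforms found mainly in particular tissues, 5 had H3K4me3, 4 had an anti-MITF site in GFP cells and 2, ATP6V0E2 and ATP6V1E2, had a site in MAFG cells. The count of 4 with an anti-MITF site in GFP cells is near the share of all coding genes. The 15 V-ATPase genes of the main list, most of them broadly expressed, all had H3K4me3. In the 4 lists together 58 of 79 genes (73.4%) had an anti-MITF site in GFP cells and 16 (20.3%) in MAFG cells, and 28 (35.4%) had an anti-MAFG site in GFP cells. ATG9A, which supplies membrane to the growing autophagosome, was the only gene among these 79 or the 42 with an anti-MAFG site in MAFG cells. It makes 1.27% of the 79 genes, which is near the 1.76% of all coding genes.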

How the data were processed

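CUT&RUN peak lists of WM164 cells, 14 libraries, were analysed; the 2 IgG samples were not. Per the submitters' processing notes, reads were processed with cutadapt 1.8.1, Bowtie2 2.4.1, MACS2 2.1.1.20160309, ChIPseeker 1.32.1 and deepTools, with builds GRCh38 and hg38. The control and options of peak calling are not given in the sources used here. Each deposited list holds 1 library. It gives each peak's fold enrichment, a linear ratio, and the −log10 of its p-value and q-value, all as the authors deposited them.

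Peaks of an antibody were merged over its 6 libraries where they overlapped or touched. A gene had a site in a group when at least 2 of 3 libraries had a peak of the same merged region, overlapping by at least 1 bp the 5000 bp around either gene end of the RefSeq table (GRCh38.p14). With H3K4me3, 1 peak sufficed. As a check of the build, 64.0% of the H3K4me3 summits of GFP cells lay within 1000 bp of a gene end, and 5.90% after a shift of 100000 bp. All 42 symbols matched. Matched shares were standardised to the listed genes' 5 length classes and H3K4me3 in GFP cells, with no random draws. No test was run, since the genes were chosen by name. The members, pathway lists and counts were chosen with earlier results of these data known. Leading genes were those with a peak near the gene in 3 of 3 libraries, not always in the same region. They were ordered by the mean within-library percentile of fold. The first 10 per GFP-cell group and all in MAFG cells are named.

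Fragments at a summit were recovered by solving the deposited fold and p-value together (1 scale per library, tolerance 0.001 in −log10 p), which fitted 100.0% of peaks for both factors; for H3K4me3 it fitted 95.6% (GFP cells) and 99.99% (MAFG cells). The scale was 0.969 to 1 in the anti-MAFG and anti-MITF libraries of GFP cells and 0.452 to 0.637 in those of MAFG cells. Total reads are unknown. Fragments are not depth-normalised. Replicate libraries shared 33.3% to 44.9% of base pairs. The counting was tested on simulated peaks. Python 3.11.15, pandas, numpy and matplotlib were used. Alternatives were a 1 kb window, the gene body, summits only, 3 of 3 libraries, a −log10 q of at least 5, equal peak numbers, no matching and leaving out libraries.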

Additional observations from a re-analysis of the deposited data

How the results depend on the processing

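The share of listed genes with an anti-MITF site stayed above that of the reference genes in both lines under all alternatives tried, and no count of the listed genes carried a test. No paired analysis was possible because the results are counts and shares described without a test, so no fit exists to which a replicate block could be added. Where a library was left out, a site needed a peak in both remaining libraries of the group, so counts could only stay or fall. For anti-MITF in GFP cells (35 genes, 27.6 points above matched genes), the count was 17 with equal peak numbers, beside 4.08% of all coding genes. It was 32 to 34 without single libraries, beside 28.4% to 28.6%. The points were 34.1 with a −log10 q of at least 5, 37.0 with 1 kb, 34.7 with 3 of 3 libraries, 47.9 unmatched, 34.0 with equal peak numbers and 31.2 to 35.8 without single libraries. For anti-MITF in MAFG cells (17 genes, 33.6 points), 3 of 3 libraries gave 11 genes, beside 2.58% of all coding genes, and 22.2 points. The q limit gave 24.4 points. Leaving out libraries gave 12 to 15 genes, beside 3.22% to 3.27% of all coding genes, and 23.5 to 30.8 points. For anti-MAFG in GFP cells (14 genes, -3.22 points), the count was 9 (21.4% of the list) with the q limit, beside 18.0% of all coding genes. It was 5 (11.9%) with 3 of 3 libraries, beside 14.1%, and 1 (2.38%) with equal peak numbers, beside 2.23%. Without single libraries it was 6 to 11, beside 15.1% to 22.5%. With 3 of 3 libraries the share of the list was thus below that of all coding genes, and with equal peak numbers it was near it. The points were -4.71 with 1 kb, -8.69 with 3 of 3 libraries, -0.874 with equal peak numbers, -5.02 with summits only and -9.58 to -5.41 without single libraries. They changed sign to 8.06 unmatched and 0.559 with the gene body. For anti-MAFG in MAFG cells (0 genes, -2.45 points), the gene body gave 1 gene (2.38% of the list), beside 4.57% of all coding genes. The points were -1.35 with 1 kb, -1.41 with 3 of 3 libraries and -1.83 to -1.71 without single libraries, which left the count at 0. Matching on the class of H3K4me3 fold, added after seeing the data, moved the points to 22.03 for anti-MITF and -6.23 for anti-MAFG in GFP cells. Counting regions near 1 coding gene only was also added after seeing the data. For anti-MITF it gave 19 genes and 15.7 points in GFP cells, beside 19.8% of all coding genes. In MAFG cells it gave 11 genes and 22.7 points, beside 2.36%. For anti-MAFG in GFP cells it gave 7 genes (16.7% of the list) and -4.66 points. That count is near the share of all coding genes, 15.8%. For anti-MAFG in MAFG cells the points were -1.56. The cause of these shifts was not tested.

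Sequencing depth is unknown, and its part in the difference between the lines was not tested. The weakest called peak had 8 to 12 fragments in MAFG-cell libraries and 5 to 7 in GFP-cell libraries, so a missing site means that none was detected. A peak near a gene end need not act on that gene. H3K4me3 had 1 library per line.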

Other observations

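For SCARB2 and FNIP2, 2 of the 7 listed genes without a site of either antibody at their ends, the promoter table gives a start site inside the gene, more than 5 kb from both ends. At the start site of SCARB2 (chromosome 4, position 76213824) anti-MITF peaks were present in all 3 libraries of GFP cells, with folds of 4.65, 5.04 and 5.11, and H3K4me3 peaks in both lines, with folds of 44.7 and 24.2. FNIP2 has a start site at position 158805839 of chromosome 4, where anti-MITF peaks had folds of 9.36, 6.55 and 8.31 in GFP cells and 5.73 in replicate 3 of MAFG cells. No H3K4me3 peak was called at this FNIP2 start site in either line. The other 5 genes without a site were ATP6V0C, ATP6AP2, CTSB, CTSL and GUSB. These values were looked up after the gene-end counts were known.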
